A study of Mus musculus with 19 samples.

Results

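The Zfp genes expressed in mouse liver were described in livers with and without RALY, an RNA-binding protein of the heterogeneous nuclear ribonucleoprotein family. These genes carry a symbol made of Zfp and a number, and they were chosen by their level: the mean value over the 6 mice, both groups together, had to be at least 1 scaled read per 1000000 reads. Of 357 such symbols among the 24054 genes of the table, 270 met this rule, 76 had reads but a lower mean, and 11 had no read in any mouse. Just inside the rule were Zfp619, Zfp455 and Zfp72, with means of 1.0, 1.09 and 1.10. Just outside it were Zfp551, Zfp112 and Zfp429, with means of 0.903, 0.922 and 0.932. The levels below are therefore a description. The difference between the groups did not enter the rule, except that 5 members (Zfp369, Zfp455, Zfp619, Zfp72 and Zfp872) had a mean under 1 in one of the groups.

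All mice were Raly flox/flox animals of C57BL/6 background on a chow diet, and the methods describe males unless stated otherwise. L-RalyKO mice received AAV8.TBG.Cre, in which the hepatocyte promoter TBG drives Cre recombinase and the floxed exons 3 and 4 of Raly are removed, and controls received AAV8.TBG.GFP, so that the controls, which the labels call wild type, carry the floxed alleles and a virus too. RNA-seq of livers collected 4 weeks after the virus was analysed here for 3 mice per group, with 1 library per mouse, and the ages of these mice were not given in the sources used here. The ATAC-seq of liver and the ChIP-seq of Hepa1-6 cells were not analysed here.

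Most proteins named Zfp hold zinc fingers of the C2H2 kind, in which a pair of cysteines and a pair of histidines grip a zinc ion and the helix between them reads a short stretch of DNA. Many of them carry a KRAB box as well, which recruits the corepressor TRIM28 and, through it, the histone methyltransferase SETDB1 and HP1 proteins, and genes of this class lie in clusters and often silence transposable elements. Other members bind RNA, as does Zfp36 with its CCCH fingers, or act as ubiquitin ligases, partners of chromatin complexes or activators of promoters.

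Raly itself had values of 50.1, 48.6 and 46.8 in the controls and of 6.34, 6.61 and 7.39 in the L-RalyKO mice (log2 fold change −2.67). A value is a gene's reads per 1000000 reads of its library after scaling, and 3 reads correspond to a value between 0.0789 and 0.105. The libraries held between 28302983 and 38052705 reads on genes. The hepatocyte markers summed to between 90700 and 99500 in controls and between 101000 and 102000 in L-RalyKO mice, and those of Kupffer cells, endothelium, stellate cells, lymphocytes and erythroid cells had overlapping sums. The 4 cholangiocyte markers, of which 2 passed the filter on low values, summed to between 4.62 and 5.93 in controls and between 6.85 and 8.35 in L-RalyKO mice. The 3 proliferation markers, of which 1 passed it, summed to between 2.32 and 2.38 and between 3.03 and 3.60. No marker of any list passed the test in limma, while with DESeq2 2 of the 6 hepatocyte markers (Apoa1 and Cps1) and 1 cholangiocyte marker (Sox9) did. No listed marker found in the table was at 0 in all mice. The part of these sums in the results below was not tested.

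The Zfp genes were expressed at low levels. The median of the members' mean values was 6.15, against 17.3 over the 11580 genes with a mean of at least 1, and 116 members lay between 1 and 5, 123 between 5 and 20 and 31 at 20 or more. Together they took between 0.316% and 0.329% of the reads of a mouse. Their summed values were 3157, 3227 and 3307 in the controls and 3252, 3289 and 3255 in the L-RalyKO mice, so that the groups overlapped. The 10 members with the highest values made up 30.1% of the sum. The spread between mice was 8.23% in controls and 8.50% in L-RalyKO mice (median coefficient of variation over members), of which counting alone would give 7.04%, and the same medians over all genes tested were 6.70% and 6.25%.

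Levels were compared between members per kilobase of annotated exons. Zfp445, a KRAB protein that keeps genomic imprints, had the highest level per length (mean 46.6 per kb, between 41.8 and 52.2 in single mice), although its annotated model holds coding bases only, which raises a level per length. Zfp36, which binds AU-rich elements and promotes the decay of cytokine and other short-lived mRNAs, followed at 44.2 per kb (36.3 to 61.0), and Zfp488, known from oligodendrocyte differentiation, at 41.5 per kb (37.8 to 43.8). The ranges of these 3 genes overlapped, and their order is not resolved. Zfp825 (23.2 per kb, coding bases only) and Zfp706 (21.4 per kb) came next, and their ranges overlapped too. Zfp598, a ubiquitin ligase that senses collided ribosomes, Zfp809, which silences proviruses, Zfp871, Zfp91, a ubiquitin ligase, and Zfp869 (coding bases only) lay between 13.7 and 17.3 per kb, and each of these 5 overlapped with the next in the order except Zfp91 with Zfp869. The model of Zfp809 has 1287 bp for 402 coded residues and so holds little beside coding bases, which raises its level per length too. None of the 10 passed the test between the groups in limma, edgeR or DESeq2, and 2 (Zfp445 and Zfp825, both lower) had an unadjusted p under 0.05, near the 22.7% of all genes, of which 6.55% passed in limma.

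**Figure D1:**
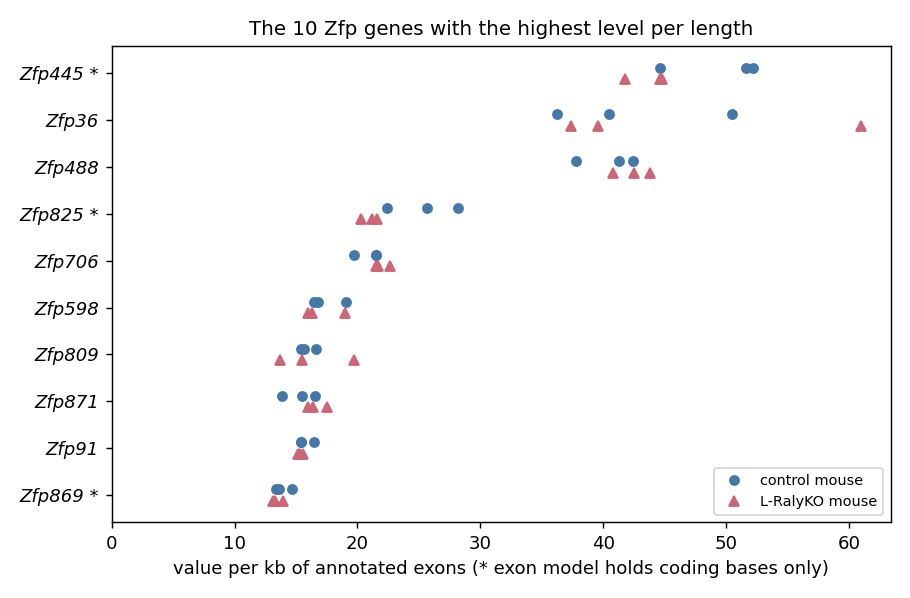
The value per kb of annotated exons (horizontal axis) is shown for each control mouse (circles) and each L-RalyKO mouse (triangles) for the 10 members with the highest level per length; an asterisk marks models with coding bases only. The first 3 genes lie apart from the rest, at 36.3 per kb or more in every mouse, and the groups overlap for 9 of the 10 genes, Zfp825 being the exception.

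The comparison of L-RalyKO with control liver asked which of these regulators differ when hepatocytes lack RALY. Of the 270 members, 9 differed at an adjusted p under 0.05 (3.33%, limma, adjusted over all 11580 genes). Zfp503, Zfp703, Zfp217, Zfp275, Zfp516 and Zfp113 rose and Zfp276, Zfp704 and Zfp207 fell. Over all genes tested the shares were 6.55% in either direction, 3.36% higher and 3.19% lower, so that the members' share lay below that of the table. When all genes that had a read were tested together, 2.59% of the members passed, against 3.74% of the same 11580 genes. At an unadjusted p under 0.05 there were 46 members (17%), 26 higher and 20 lower, against 22.7% of all genes, 11.8% higher and 10.9% lower. The lowest value of one group lay above the highest of the other for 62 members (23.0%), 36 higher and 26 lower in L-RalyKO liver, against 28.1% of all genes, 14.4% higher and 13.7% lower. In bulk liver, fewer cells of a type and less RNA per cell cannot be told apart.

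Changes were small. The median log2 fold change of the members was 0.03, against 0.00 over all genes, and 161 of 270 members (59.6%) had a positive one, against 51.2% of all genes. Fold changes are on the scale of log2(value + 1), which understates changes of low genes. On it, 0 members changed 2-fold and 3 (Zfp503, Zfp703 and Zfp276) had a fold change of at least 1.5. For 247 members (91.5%) the whole 95% interval lay within 1.5-fold of no change on this scale, against 89.4% of all genes, and the median half-width of the interval was 0.22. The split into higher and lower at an unadjusted p under 0.05 depended on the scaling. With scaling by total counts 44 members were under it, 19 higher and 25 lower, and the median over all members was −0.00. This scaling moved the median of all genes too, to −0.03, and the split of all genes under it is not given here. Of the 9 members, 5 (Zfp275, Zfp276, Zfp503, Zfp703 and Zfp704) kept an adjusted p under 0.05 in every alternative fit that included them.

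**Figure D2:**
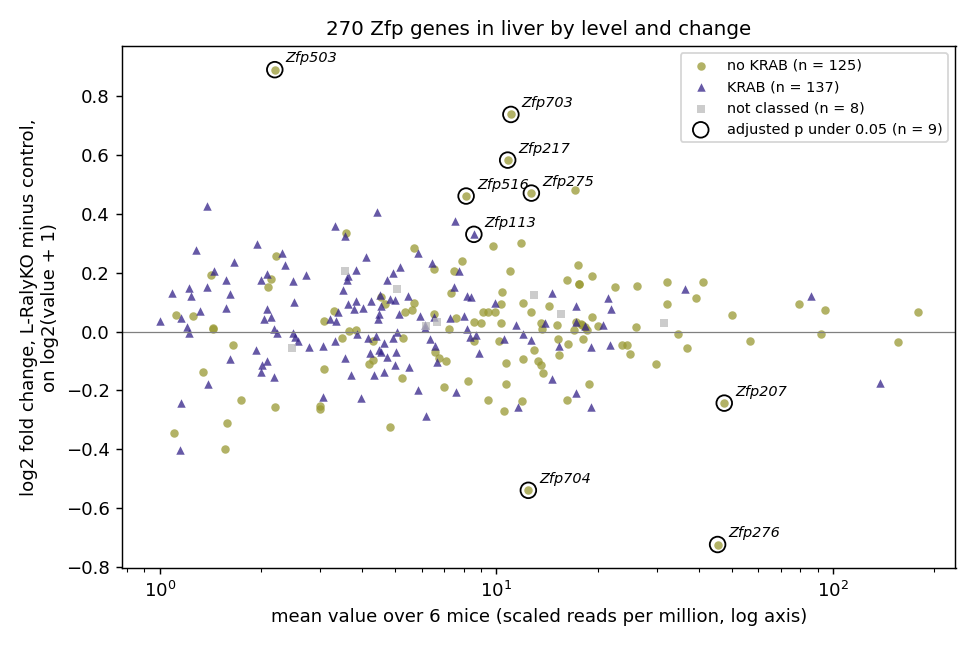
Each of the 270 members is placed by its mean value over 6 mice (horizontal, log axis) and its log2 fold change, L-RalyKO minus control (vertical), with KRAB members as triangles, members without a KRAB box as circles and unclassed members as squares. The 9 ringed members are at an adjusted p under 0.05, and 8 of them carry no KRAB box.

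Zfp503 and Zfp703 are a pair of related transcriptional repressors that bind Groucho corepressors and lack an array of C2H2 fingers, and both rose. Zfp503 (ENSMUSG00000039081.8, chr14:22803184-22808823 on NCBIM37, minus strand) had values of 1.31, 1.44 and 0.973 in the controls and of 3.58, 3.22 and 2.66 in the L-RalyKO mice. It rested on between 36 and 123 reads per mouse. The groups did not overlap, and the means were 1.24 ± 0.240 and 3.15 ± 0.464 (SD, n = 3 mice each). On the log2 scale the change was 0.89 (SE 0.128, adjusted p = 0.00666, limma), while the ratio of the means was 2.54. Zfp703 (ENSMUSG00000085795.1, chr8:28087808-28091933, plus strand) had values of 7.48, 8.42 and 8.14 in the controls and of 14.6, 15.4 and 12.2 in the L-RalyKO mice. Every L-RalyKO mouse lay above every control, with a log2 fold change of 0.74 (SE 0.0933, adjusted p = 0.00391).

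Zfp217 recruits CtBP and LSD1 corepressors to DNA and is amplified in human breast cancers. Its values (ENSMUSG00000052056.8, chr2:169934143-169973603, minus strand) were 7.27, 9.08 and 9.0 in the controls and 13.3, 14.7 and 11.5 in the L-RalyKO mice. The groups did not overlap, and the log2 fold change was 0.58 (SE 0.109, adjusted p = 0.0185). Without control replicate 1, L-RalyKO replicate 1 or L-RalyKO replicate 2 its adjusted p was 0.0548, 0.0675 and 0.0611. Zfp275 (ENSMUSG00000031365.6, chrX:70587959-70604419, plus strand), with 11 fingers, had values of 9.39, 10.7 and 11.4 in the controls and of 14.5, 14.9 and 15.2 in the L-RalyKO mice. The L-RalyKO mice lay close together (14.9 ± 0.362) and above every control (10.5 ± 1.0 SD), and its log2 fold change was 0.47 (SE 0.0792, adjusted p = 0.0120).

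The promoters of these genes are shown because the study concerns RALY together with the CCAAT-binding factor NFY, and because 5 of the 9 members have a promoter in the RefSeq set of GRCm38.p6. Each run holds 250 bases before and 50 after the annotated start, read 5′ to 3′ on the gene's strand. Capitals mark the letters CCAAT, the GC box GGGCGG and the TATA box TATAAA, on either strand, so that CCAAT also appears as ATTGG and GGGCGG as CCGCCC. Zfp275 (chrX:73342370-73342669, plus strand), Zfp217 (the first of its promoters, chr2:170142626-170142925, minus strand) and Zfp503 (chr14:21989552-21989851, minus strand) read as follows.
Zfp275: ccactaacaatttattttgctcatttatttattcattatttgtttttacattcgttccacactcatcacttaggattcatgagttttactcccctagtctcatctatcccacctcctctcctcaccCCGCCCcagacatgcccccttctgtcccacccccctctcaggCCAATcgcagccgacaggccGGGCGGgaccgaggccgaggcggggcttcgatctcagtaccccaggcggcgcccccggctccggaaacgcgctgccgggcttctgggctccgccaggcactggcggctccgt
Zfp217: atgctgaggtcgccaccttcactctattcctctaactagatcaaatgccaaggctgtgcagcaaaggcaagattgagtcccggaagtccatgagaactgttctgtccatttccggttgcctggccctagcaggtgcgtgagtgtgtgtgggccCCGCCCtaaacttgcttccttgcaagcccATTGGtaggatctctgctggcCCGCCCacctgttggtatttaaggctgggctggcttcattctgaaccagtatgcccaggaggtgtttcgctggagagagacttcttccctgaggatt
Zfp503: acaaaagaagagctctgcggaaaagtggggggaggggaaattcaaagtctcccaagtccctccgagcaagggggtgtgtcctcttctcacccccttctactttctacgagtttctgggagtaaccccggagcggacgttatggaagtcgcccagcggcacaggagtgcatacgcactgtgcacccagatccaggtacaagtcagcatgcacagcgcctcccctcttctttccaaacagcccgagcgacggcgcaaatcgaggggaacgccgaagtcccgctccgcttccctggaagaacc
The Zfp275 and Zfp217 promoters each hold 1 CCAAT and 2 GC boxes, and in the Zfp503 window the 3 motifs do not occur. The second Zfp217 promoter holds 3 GC boxes, that of Zfp207 holds 1 CCAAT, and in that of Zfp113 the 3 motifs do not occur. Zfp703, Zfp276, Zfp704 and Zfp516 are named only.

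Promoters were found for 225 members (279 promoters, since a gene can have several). They were set against the 11271 promoters of the tested genes, which met the same rule on level, and against all 32851 RefSeq promoters of the same length. CCAAT occurred in 46.6% of the members' promoters, against 37.7% and 37.4%. GGGCGG occurred in 47.3%, which lay below the 61.6% of the tested genes and above the 35.7% of all promoters. TATAAA occurred in 5.73%, against 7.5% and 13.6%. KRAB members had CCAAT in 51.8% and GGGCGG in 35.3% of their promoters, and the other members in 41.4% and 59.3%, with a median GC content of 53.0% and 61.5%, against 60.7% for the tested genes. Of the 114 members with CCAAT in a promoter, 3 passed the test (2.63%) and 18 had an unadjusted p under 0.05 (15.8%, 8 higher and 10 lower), with a median log2 fold change of 0.03. Of the 111 without it, 2 passed (1.8%) and 19 had an unadjusted p under 0.05 (17.1%, 12 higher and 7 lower), with a median of 0.02. Among all tested genes of the promoter set, 6.91% of those with CCAAT and 6.04% of those without it passed, and 23.7% and 21.7% had an unadjusted p under 0.05. A match of letters is a description and not a bound site.

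Zfp516 activates thermogenic genes in brown fat together with PRDM16. Its values (ENSMUSG00000058881.6) were 5.66, 7.71 and 6.73 in the controls and 9.54, 8.85 and 10.3 in the L-RalyKO mice. The groups did not overlap, and the log2 fold change was 0.46 (SE 0.108, adjusted p = 0.0422). Its adjusted p rose to between 0.0721 and 0.118 without any 1 mouse other than control replicate 2, and was 0.0652 with the replicate number as a block, 0.0579 without the intensity trend and 0.0921 with all genes that had a read. In the list of adipocyte and lipid related genes it was the 1 of 6 tested members that passed (16.7%, against 6.55% of all genes), and Zfp423 and Zfp521, which steer preadipocyte fate, lay under the mean of 1. All 6 had a positive log2 fold change. In the fit of all genes that had a read, those of Zfp423 and Zfp521 were −0.43 and −0.28 (limma, adjusted p = 0.223 and 0.203). Zfp467, which favours adipocyte over bone fate, had values of 18, 21.9 and 14.2 in the controls and of 19.7, 22.7 and 18.9 in the L-RalyKO mice, which overlapped. Zfp395 had between 38.0 and 63.2 in controls and between 47.1 and 54.8 in L-RalyKO mice.

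Among the members that fell, Zfp276 had the largest fall. Zfp276 (ENSMUSG00000001065.8, chr8:125778095-125793645, plus strand), with 5 fingers, had values of 61.4, 52.1 and 56.7 in the controls and of 34.1, 29.9 and 38.0 in the L-RalyKO mice. The groups were far apart (56.7 ± 4.66 against 34.1 ± 4.06, SD, n = 3 mice each), with a log2 fold change of −0.72 (SE 0.0923, adjusted p = 0.00396). Its exons overlap those of Fanca, a Fanconi anaemia gene on the opposite strand, over 652 bp (11.8% of its exon length), and those of 1300018I17Rik, also on the opposite strand, over 154 bp (2.78%). Zfp704 (ENSMUSG00000040209.7, chr3:9427011-9610085, minus strand), a relative of Zfp395, had values of 14.1, 15.7 and 14.9 in the controls and of 10.5, 9.31 and 10.1 in the L-RalyKO mice. All 3 L-RalyKO mice were under the lowest control, with a log2 fold change of −0.54 (SE 0.0729, adjusted p = 0.00518). Of its exon length, 18.2% overlaps a non-coding gene, C030034L19Rik, on the opposite strand. The libraries were stranded, but whether the counting used the strand is not given in the sources used here, and if it did not, reads of such partners cannot be told apart.

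Zfp207, also known as BuGZ, binds the checkpoint protein Bub3 and microtubules of the spindle. Zfp207 (ENSMUSG00000017421.10, chr11:80196781-80219235, plus strand) had values of 52.2, 50.5 and 52.0 in the controls and of 45.2, 41.3 and 43.8 in the L-RalyKO mice. The groups did not overlap and the fall was small (log2 fold change −0.24, SE 0.0522, adjusted p = 0.0315). Without any 1 of the 6 mice the adjusted p was between 0.0574 and 0.0988, and without the intensity trend it was 0.0639. The exact permutation test over 3 against 3 mice cannot give a p under 0.1, which holds for each of these genes.

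**Figure D3:**
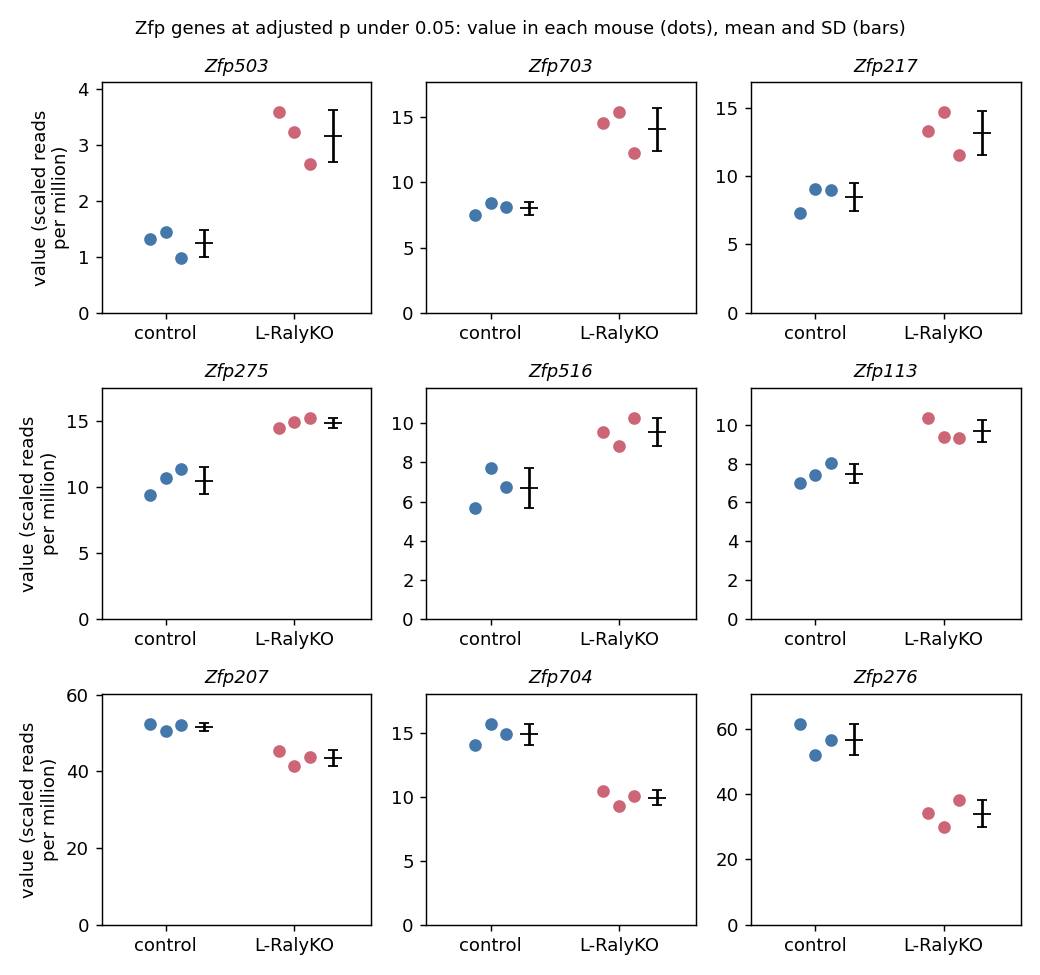
The value in each mouse (dots) with the mean and SD (bars, n = 3 mice) is shown for the 9 members at an adjusted p under 0.05, controls on the left and L-RalyKO on the right of each panel, with axes from 0 in scaled reads per 1000000 reads. In every panel the 3 L-RalyKO mice lie entirely above or entirely below the 3 controls.

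Members were then divided by the KRAB box. A KRAB-A core with at most 1 mismatch over 8 fixed residues was found in the translated coding sequence of 137 members (101 without a mismatch), 125 had none, and 8 could not be classed because no protein was matched (Zfp131, Zfp319, Zfp383, Zfp433, Zfp65, Zfp664, Zfp708 and Zfp738). The 125, called members without a KRAB box here, include 7 with 2 or 3 mismatches. KRAB members had a median of 12 fingers and the others of 7, and Zfp142 had the most, 36. The pattern found no finger in 7 members, Zfp330, Zfp36, Zfp503, Zfp703, Zfp750, Zfp781 and Zfp839. The coding DNA of the KRAB-A core is shown for Zfp113, the 1 KRAB member that passed the test (chr5:138591860-138591913, minus strand, exon 4 of 5), and for Zfp445, the KRAB member with the highest level per length (chr9:122765842-122765895, minus strand, exon 4 of 6). Sequences are from NCBIM37 and GENCODE vM1, with the codons of the fixed residues in capitals.
Zfp113 KRAB-A: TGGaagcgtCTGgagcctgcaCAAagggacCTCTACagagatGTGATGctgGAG
Zfp445 KRAB-A: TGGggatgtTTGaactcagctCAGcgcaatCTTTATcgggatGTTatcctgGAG
All 8 fixed codons are kept in Zfp113 and 7 in Zfp445. A finger with the codons of its zinc-binding cysteines and histidines in capitals is shown for Zfp113 (chr5:138586525-138586608, minus strand, exon 5 of 5), Zfp275 (chrX:70599315-70599398, plus strand, exon 6 of 6) and Zfp217 (chr2:169945456-169945539, minus strand, exon 2 of 6). In Zfp113 and Zfp275 the printed finger is followed by the linker that joins fingers of an array, and in Zfp217 it is not. A finger followed by the linker was preferred in the choice, so that the printed fingers do not describe the whole proteins. Matches to the linker numbered 7 in Zfp113 (8 fingers), 1 in Zfp275 (11 fingers) and 1 in Zfp217 (8 fingers).
Zfp113 finger: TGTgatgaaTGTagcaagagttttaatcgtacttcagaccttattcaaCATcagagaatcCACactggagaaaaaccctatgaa
Zfp275 finger: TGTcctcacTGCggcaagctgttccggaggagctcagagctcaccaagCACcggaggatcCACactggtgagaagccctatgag
Zfp217 finger: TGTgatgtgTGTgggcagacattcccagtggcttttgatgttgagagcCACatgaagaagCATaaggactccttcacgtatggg

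Zfp113 (ENSMUSG00000037007.10, chr5:138580930-138596972, minus strand), with 8 fingers, had values of 7.0, 7.43 and 8.0 in the controls and of 10.3, 9.34 and 9.31 in the L-RalyKO mice. The groups did not overlap, and the log2 fold change was 0.33 (SE 0.0790, adjusted p = 0.0444). This was close to the threshold, and the adjusted p was 0.0522 with DESeq2, 0.0508 with limma voom, 0.0864 with the replicate number as a block, 0.0961 with all genes that had a read and between 0.0831 and 0.152 without any 1 mouse other than control replicate 3. Zfp113 was 1 of 137 KRAB members that passed the test (0.73%), against 8 of 125 members without a KRAB box (6.40%) and 6.55% of all genes. At an unadjusted p under 0.05 there were 16 KRAB members (11.7%), 9 higher and 7 lower, and 30 of the others (24.0%), 17 higher and 13 lower, against 22.7% of all genes. The groups did not overlap for 24 KRAB members (17.5%) and for 37 of the others (29.6%), against 28.1% of all genes, so that members without a KRAB box lay near the shares of the table on all 3 counts. Median log2 fold changes were 0.04 and 0.02.

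The classes differ in level, with a median value of 4.42 for KRAB members and of 10.5 for the others, and low genes pass less often. Among all genes with a mean value of 1 to 5 the share that passed was 3.68%, at 5 to 20 it was 5.86% and at 20 or more it was 8.37%. In the same ranges 0 of 83, 1 of 47 and 0 of 7 KRAB members passed, and 1 of 31, 5 of 71 and 2 of 23 members without a KRAB box. In the lowest range 7 KRAB members and 6 of the others had an unadjusted p under 0.05 (8.43% and 19.4%, against 17.8% of all genes there). The difference between the classes was not tested. None of the 9 members shared more than 1.11% of its 50-base words with other genes, while 27 members shared over 10% (among them Zfp960, 81.9%, most of it with Zfp97), and values of such pairs depend on how their reads were divided.

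**Figure D4:**
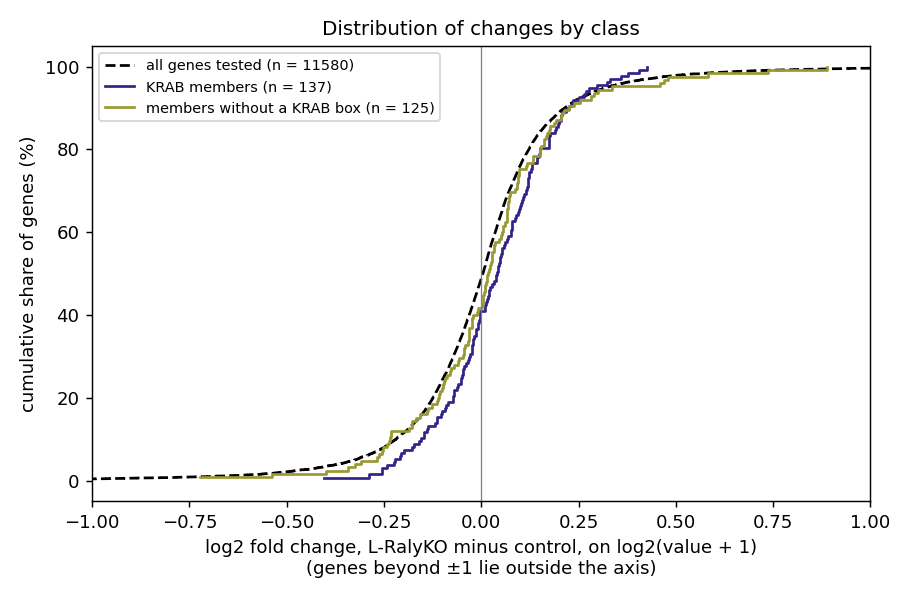
Cumulative shares of genes (vertical, %) are drawn against the log2 fold change, L-RalyKO minus control, for the 137 KRAB members, the 125 members without a KRAB box and the 11580 genes tested (dashed). The KRAB curve lies to the right of the dashed curve near 0 (median 0.04 against 0.00), and the median of the members without a KRAB box is 0.02.

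Among the genes that serve the KRAB box, none of the 19 tested passed in limma, 1 (Chd4) passed with DESeq2, and 2 had an unadjusted p under 0.05 (10.5%), 1 in each direction. Over all genes 6.55% passed in limma and 9.25% with DESeq2, and 22.7% had an unadjusted p under 0.05. Uhrf1, listed too, was left out because its mean lay under 1. Its values were 0.149, 0.21 and 0.162 in the controls and 0.494, 0.522 and 0.447 in the L-RalyKO mice, without overlap. Trim28, the corepressor that KRAB boxes bind, had values of 57.7, 63.9 and 56.6 in the controls and of 64.4, 68.1 and 62.1 in the L-RalyKO mice, with overlapping groups. Setdb1, the methyltransferase it recruits, had between 26.5 and 28.4 in controls and between 27.3 and 31.0 in L-RalyKO mice. Chd4, a remodeller of the NuRD complex, had values of 129, 132 and 146 in the controls and of 155, 169 and 155 in the L-RalyKO mice (log2 fold change 0.24, adjusted p = 0.0571). Zfp410, a member known to activate Chd4, had values of 19.0, 17.7 and 16.8 in the controls against 17.7, 18.3 and 18.2 in the L-RalyKO mice, so that the groups overlapped.

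The members on the chromosomes were grouped where neighbours lay at most 1 Mb apart. There were 14 groups of at least 5 members, which held 116 members, 62.0% of KRAB members and 24.8% of those without a KRAB box. None of the 116 passed the test in limma, edgeR or DESeq2, against 6.55% of all genes in limma. An unadjusted p under 0.05 was found for 14 (12.1%, 9 higher and 5 lower), against 22.7% of all genes, and the median log2 fold change was 0.05. Of 87 members with no other within 1 Mb, 7 passed (8.05%), a share near that of all genes. The median value was 4.69 for the 116 and 8.99 for the 87, against 17.3 for all genes. Low genes pass less often, with 3.68% of all genes at a mean value of 1 to 5, and the part of level here was not tested. The largest group lay on chromosome 17 from 21145905 to 23701193 (NCBIM37) and held 17 members, 16 of them with a KRAB box. Their median log2 fold change was 0.12, with 12 of 17 above 0, and the groups of mice did not overlap for 8 (47.1%, against 28.1% of all genes), 4 higher and 4 lower. Of the 17, 3 (17.6%, against 22.7% of all genes) had an unadjusted p under 0.05, 1 higher and 2 lower. Zfp213, the member without a KRAB box, had values of 6.65, 6.94 and 7.0 in the controls and of 8.35, 8.44 and 7.45 in the L-RalyKO mice (log2 fold change 0.21, adjusted p = 0.155). Zfp758 had 6.88, 7.19 and 6.57 against 5.18, 5.45 and 5.74 (log2 fold change −0.29, adjusted p = 0.0650), and Zfp942 had 13.6, 11.6 and 12.9 against 10.6, 9.95 and 10.8 (−0.26, adjusted p = 0.0884). These 3 genes do not overlap between the groups of mice, and they differ in direction.

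**Figure D5:**
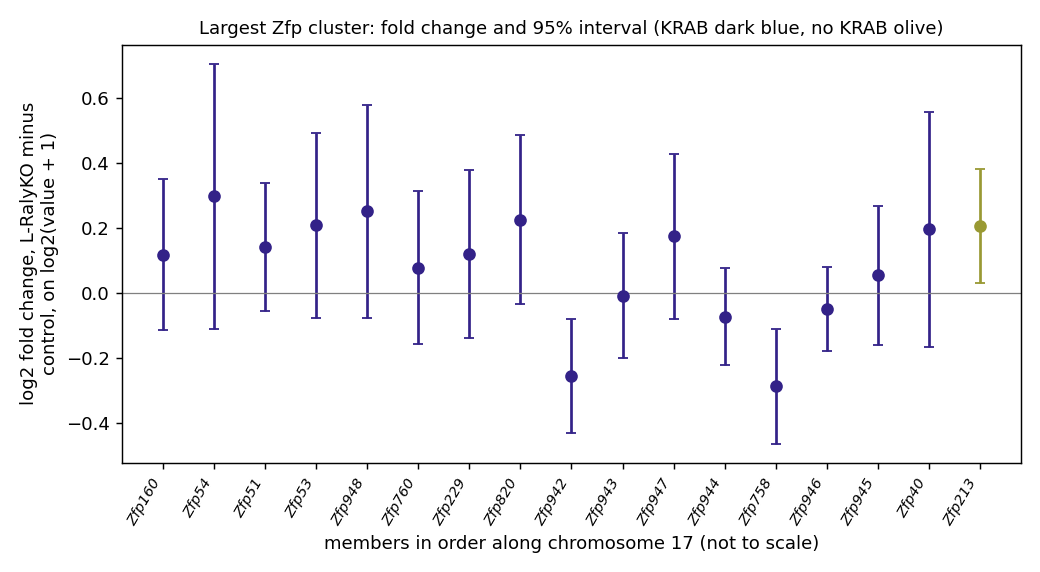
The log2 fold change, L-RalyKO minus control (points), with its 95% interval (bars) is shown for the 17 members of the largest group in their order along the chromosome, not to scale. Of the 17 intervals, those of Zfp942, Zfp758 and Zfp213 leave out 0, the first 2 below it and the last above it.

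Members were also grouped by what they do, in lists written from general knowledge. Beside the counts below, 6.55% of all genes passed the test, 22.7% had an unadjusted p under 0.05, and with lists of 3 to 11 genes a share moves by much with 1 gene. Of 11 tested members that act on RNA, 1 passed (9.09%; Zfp207, above) and 3 had an unadjusted p under 0.05 (27.3%), near the shares of all genes, with a median log2 fold change of 0.03. Zfp36 had values of 72.5, 65.0 and 90.5 in the controls and of 109, 71.0 and 67.0 in the L-RalyKO mice, the widest spread of this list, and its groups overlapped (log2 fold change 0.09, SE 0.182). Zfp385b, with RNA-binding fingers of the matrin kind, had values of 11, 14.3 and 17.6 in the controls and of 19.3, 20.8 and 19.9 in the L-RalyKO mice. These do not overlap, and the adjusted p was 0.0770 (log2 fold change 0.48, SE 0.138), which fell to 0.0119 with DESeq2 and to 0.0143 without control replicate 3. It was between 0.134 and 0.186 without any 1 mouse other than control replicate 3, and 0.139 with all genes that had a read. Without control replicate 1 the log2 fold change of Zfp385b was 0.32. Its relative Zfp385a had between 10.4 and 12.1 in controls and between 8.47 and 11.1 in L-RalyKO mice (log2 fold change −0.27, adjusted p = 0.180). Zfp106, an RNA-binding protein of muscle and nerve, had between 87.4 and 96.5 in controls and between 89.8 and 94.8 in L-RalyKO mice.

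Of the 3 members that attach ubiquitin or SUMO none passed in limma, edgeR or DESeq2, and none had an unadjusted p under 0.05. Zfp91 had between 154 and 166 in controls and between 152 and 157 in L-RalyKO mice, and Zfp598 between 54.0 and 62.7 and between 52.6 and 62.4. Of 7 tested members listed, from general knowledge, under silencing of retroelements or imprints, none passed in limma, edgeR or DESeq2. An unadjusted p under 0.05 was found for 3 of them (42.9%), all lower. The other 4, Zfp110, Zfp568, Zfp708 and Zfp809, had log2 fold changes between 0.02 and 0.14, and the median of the 7 was 0.02. Zfp445 had values of 153, 132 and 155 in the controls and of 133, 124 and 132 in the L-RalyKO mice (log2 fold change −0.17, adjusted p = 0.171), and the groups overlapped. Zfp961 had 8.70, 7.99 and 7.95 against 6.75, 6.67 and 7.58, and Zfp932 had 4.38, 4.66 and 3.95 against 3.46, 3.89 and 3.34, each without overlap (adjusted p = 0.171 and 0.206). Zfp809 had between 19.8 and 21.4 in controls and between 17.6 and 25.4 in L-RalyKO mice. Zfp57, which keeps imprints in the embryo, lay under the mean of 1.

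Of 8 tested members that activate promoters or bind GC boxes none passed in limma, edgeR or DESeq2, and 1 had an unadjusted p under 0.05 (12.5%). This was Zfp740, with values of 30.5, 30.7 and 29.3 in the controls and of 35.2, 32.9 and 33.9 in the L-RalyKO mice (log2 fold change 0.17, adjusted p = 0.0993). Zfp143, which activates promoters and lies at chromatin loops, had between 4.07 and 4.65 in controls and between 4.0 and 5.43 in L-RalyKO mice, and Zfp148 and Zfp281, which bind GC-rich elements, had overlapping values too. Of 11 tested partners of chromatin complexes 1 passed (9.09%, Zfp217), and 3 had an unadjusted p under 0.05 (27.3%), again near the shares of all genes. Zfp518b, a partner of the methyltransferase G9a, had values of 1.91, 1.75 and 2.05 in the controls and of 0.844, 1.39 and 1.42 in the L-RalyKO mice (log2 fold change −0.40, adjusted p = 0.117). Its relative Zfp518a had 5.01, 4.91 and 5.11 against 5.56, 6.01 and 7.5 (log2 fold change 0.28, adjusted p = 0.155). Neither of these relatives overlapped between the groups, and their values lay on opposite sides.

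The remaining members with the largest differences at an unadjusted p under 0.05 were low. Zfp90 had values of 1.28, 1.23 and 0.622 in the controls and of 1.83, 1.6 and 1.71 in the L-RalyKO mice. A non-coding gene on the opposite strand overlaps 77.4% of its exon length. Zfp867 had 3.16, 3.96 and 3.87 against 5.58, 5.51 and 4.45. The adjusted p of these KRAB members was 0.132 and 0.0694. Zfp329 had 6.05, 5.40 and 4.92 against 3.37, 4.47 and 4.68, and Zfp398 had 3.37, 3.02 and 3.73 against 2.56, 2.81 and 2.53 (adjusted p = 0.153 and 0.156). Zfp872 and Zfp72 met the rule through the controls, with means of 1.45 and 1.35 there against 0.849 and 0.853 in L-RalyKO mice, so that a difference was built into their choice. None of these 6 genes passed the test.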

How the data were processed

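Livers of 3 L-RalyKO and 3 control mice were analysed, mapped by the virus in the column names and the replicate number in the labels. The members and the gene lists were chosen with earlier results of these data known. The authors deposited a normalized signal: each gene's reads were divided by the effective size of its library, as scaled reads per 1000000 reads. The methods name TopHat on mm9, Cufflinks 2.0.2 and Cuffdiff with FPKM values, and do not describe the deposited signal; the strand setting of the counting is not given in the sources used here. In every library 100% of values were whole multiples of 1 read (tolerance 0.01), and the factors equal edgeR's TMM factors. The number of value columns left unused was 0.

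The test was limma's (3.58.1, R 4.3.3) with its trend option, run on log2(value + 1) of the 11580 genes whose mean reached 1, with Benjamini-Hochberg adjustment over all of them, as the design foresaw for values that are not counts. Recovered reads (28302983 to 38052705 per mouse) were used for edgeR 4.0.16, DESeq2 1.42.0 and limma voom as alternatives, beside other scalings, pseudocounts of 0.1 and 0.5, other filters, no trend, a replicate block and leaving out each mouse. Both the number of mice and the reads of low genes limit the precision, and the labels number mice of each group from 1 to 3 without saying that numbers are shared between groups.

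Structural classes came from translating coding sequences of GENCODE vM1 (NCBIM37), where 261 members matched by symbol and 1 by synonym, and not from the RefSeq proteins the design named, which were not used here. Fingers were matched with spacings of the C2H2 kind. Promoters are RefSeq's (GRCm38.p6), found by symbol, and files used Python 3.11.15 with Biopython 1.88. Members were named if they had an adjusted p under 0.05, were among the up to 8 largest rises or falls at an unadjusted p under 0.05 without overlap between groups, had one of the 10 highest levels per length, lay next to the mean of 1, or belonged to a described list or to the largest cluster.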

Additional observations from a re-analysis of the deposited data

How the results depend on the processing

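The members at an adjusted p under 0.05 numbered 9, all those reported, with edgeR's quasi-likelihood test, both other scalings and both pseudocounts. They numbered 9 with DESeq2, 8 of them reported (without Zfp113), and 9 without a trend, 7 of them reported (without Zfp207 and Zfp516). They were 8 with limma voom, 8 of 154 with a mean of at least 5 (5.19%, against 7.52% of all genes) and 7 with all genes that had a read (2.59%, against 3.74% of the same 11580 genes and 2.81% of all 17216 tested). Over the tests, scalings, filters, pseudocounts, trend and block the share of all genes lay between 2.81% and 9.25%. Leaving out 1 mouse gave between 5 and 10 (5 without control replicate 1, L-RalyKO replicate 1 or L-RalyKO replicate 2). The share of all genes that passed then lay between 2.87% and 7.02%, and that of the members between 1.85% and 3.7%. At an unadjusted p under 0.05 there were 33 with DESeq2 and between 28 and 52 without 1 mouse, 28 being without L-RalyKO replicate 1. The share of all genes under it is given for the fit reported above alone (22.7%). Whether the members moved apart from the table is therefore not shown. Members without overlap numbered 40 with a mean of at least 5, since fewer were tested, and between 82 and 105 without 1 mouse, since fewer mice must be apart. Here too the share of all genes is given for the reported comparison alone (28.1%). The median log2 fold change of the members was −0.003 with total count scaling, which moved the median of all genes to −0.03, and between 0.02 and 0.04 without 1 mouse. Raly lay between −2.84 and −2.63 in all fits. With the replicate number as a block, 7 members had an adjusted p under 0.05 and 42 an unadjusted one, and Zfp113 and Zfp516 were lost. The deviations of same-numbered mice correlated with 0.066, −0.024 and 0.020. With 3 mice per group, such values cannot show whether the numbers pair the mice. Of 298 fits of 18 named members, 268 kept direction and side of the threshold, 27 lost it, 3 gained it and 0 turned; Zfp758 gained it without a trend (adjusted p = 0.0488). Reads limit single members, since the lowest count of a member in a mouse was 19.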

Other observations

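Other zinc-finger families were read in the same fit. Of 37 tested genes with a Zbtb symbol, which mostly stands for a BTB domain with fingers (Zbtb8os, higher at an unadjusted p under 0.05, is named only for its place beside such a gene), 2 passed the test (5.41%) and 17 had an unadjusted p under 0.05, 16 higher and 1 lower (45.9%), with a median log2 fold change of 0.11. The shares of all genes were 6.55% and 22.7%, the latter 11.8% higher and 10.9% lower. Zbtb16, also known as PLZF, had values of 9.42, 7.26 and 13.0 in the controls and of 106, 86.3 and 89.8 in the L-RalyKO mice (log2 fold change 3.15, adjusted p = 0.000118, limma), and Zbtb43 had 25.3, 25.2 and 27.2 against 32.5, 33.4 and 31.6 (0.32, adjusted p = 0.0138). In both genes the groups did not overlap. Of 8 tested Zscan genes 0 passed in limma, edgeR or DESeq2 and 1 had an unadjusted p under 0.05, and of 8 tested Zkscan genes 2 passed, Zkscan3 lower (log2 fold change −0.29, adjusted p = 0.0336) and Zkscan1 higher (0.28, adjusted p = 0.0427).

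Among the 76 Zfp genes with reads but a mean under 1, 1 had an adjusted p under 0.05 when all genes with a read were tested. In that fit 484 of all 17216 genes passed (2.81%), and 433 of the 484 had a mean of at least 1. The 1 Zfp gene was Zfp600, with values of 1.10, 0.982 and 1.0 in the controls and of 0.524, 0.261 and 0.316 in the L-RalyKO mice (log2 fold change −0.58, adjusted p = 0.0161). It was picked for naming after its values were seen.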
